A study of Rattus norvegicus with 2 samples.

Results

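Kallikrein-related peptidases are secreted serine proteases of epithelia, brain and glands, and 7 of their genes, Klk4, Klk6, Klk7, Klk8, Klk9, Klk10 and Klk11, were followed here on 2 one-colour rat expression arrays. The members were taken from a list of rat genes, and a probe was assigned to a member where its accession was a RefSeq transcript of that gene. All 7 genes had a probe, out of 15159 genes with a symbol and a probe, and they were represented by 8 of the 30367 gene probes. The genes were chosen by values of the same comparison, the log2 difference of the processed signal between these 2 arrays, so those values describe the genes and are not tested.

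RMT-1 clone E4 is a rat mammary tumour cell line grown in RPMI-1640 with fetal bovine serum. One culture was transfected with an siRNA against Pla2g4c, which encodes a cytosolic phospholipase A2, and the other with a negative control siRNA. The siRNA sequence, its dose and the time of harvest are not given in the sources used here. Total RNA of each was labelled with Cy3 and hybridised to 1 array per group, so no difference has a replicate check or a test, and the transient knockdown rests on a single sample per group. No probe was matched to Pla2g4c, so its own transcript, which would check the knockdown, was not analysed here. The 75th percentile of the processed signal over gene spots was 1105 units with Pla2g4c siRNA and 852 units with control siRNA. A probe is called detected where the scanner software flagged all its spots as well above background. A named gene was measured on both arrays in 9026 cases.

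Kallikrein-related peptidases are made as inactive precursors that other proteases, among them other kallikreins, cut into active enzymes. In human and mouse epidermis they degrade the corneodesmosomes that hold the outermost cells together, and serpins and Kazal-type inhibitors restrain them. In mammals their genes lie side by side in a single cluster, and several are expressed in glandular epithelia under steroid hormone control.

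The Pla2g4c siRNA array had higher signal for Klk8, Klk9, Klk10, Klk11 and Klk4 and lower signal for Klk7 and, less markedly, Klk6. Of the 6 members measured on both arrays, 4 were at least 2-fold higher in Pla2g4c siRNA cells, against a background of 2.91% of all named genes, and 1 was at least 2-fold lower, against 3.05%. Because this contrast chose the members, nothing is read from the counts against the background. The other gene, Klk4, was detected with Pla2g4c siRNA alone and has a lower bound. The median difference of the 6 measured members was 1.39 on the log2 scale, against -0.01 over all 9026 named genes, and it lies between members that differed in opposite directions. In the sentences below the relative signal is the processed signal of a spot as a percentage of the 75th percentile of its array, and a difference is log2 of the Pla2g4c siRNA value minus log2 of the control value. The ± on a difference is the scanner software's error of both signals, a technical error that leaves out any spread between cultures. Probes differ in how well they bind, so levels are compared between arrays and not between genes.

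**Figure D1:**
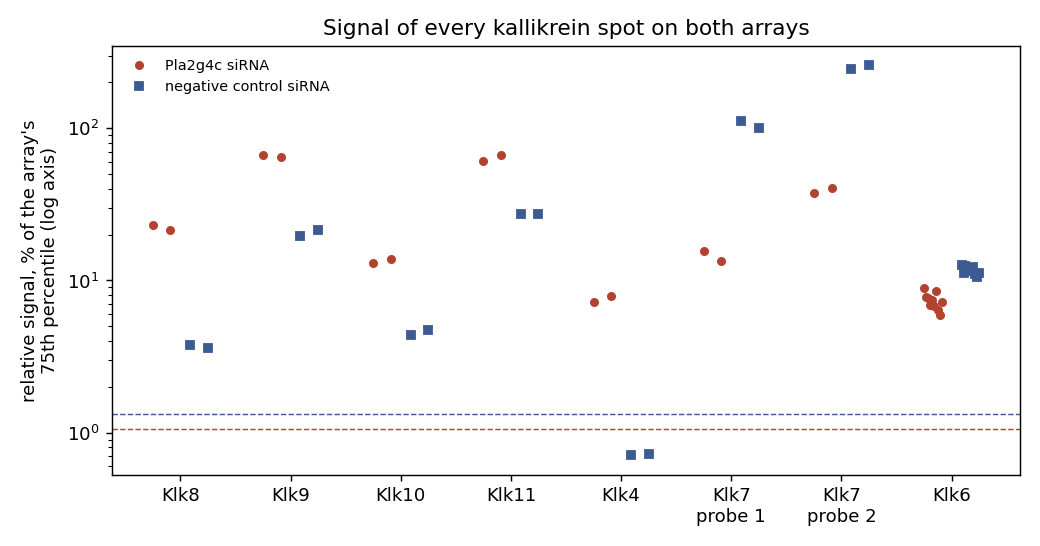
Relative signal of each of the 24 spots per array of the 8 kallikrein probes, as a percentage of the 75th percentile of the array on a log axis, with circles for Pla2g4c siRNA and squares for negative control siRNA. Dashed lines mark the dimmest detected probe of each array, 1.07% with Pla2g4c siRNA and 1.32% with control siRNA. The arrays do not overlap for any of the 8 probes, and the Klk4 control spots at 0.713% and 0.722% lie under the control line.

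Klk8 encodes neuropsin, a trypsin-like protease known from hippocampus and stratified epithelia. Its spots had relative signals of 23.3% and 21.4% on the Pla2g4c siRNA array, against 3.75% and 3.58% on the control array. Both spots of the Pla2g4c siRNA array lay above both control spots, and the spots of an array differed by at most 0.12 on the log2 scale. The difference was 2.61 ± 0.23, a 6.10-fold higher signal, and it ranked 18 from the highest among the 9026 named genes. Under normexp background correction, which adds 50 units to every spot, Klk8 was higher by 1.46 on the log2 scale. Klk8 was dim in control cells, with processed signals of 31.9 and 30.5 units there, against 257.7 and 236.6 units in Pla2g4c siRNA cells.

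Klk9 lies next to Klk8 in the genome and belongs to the same family of secreted serine proteases. It had relative signals of 66.3% and 64.8% on the Pla2g4c siRNA array, against 19.6% and 21.5% on the control array. Its spots did not overlap between the arrays, and the difference was 1.67 ± 0.21, or 3.19-fold higher. It ranked 74 from the highest.

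Klk10 was first described in human mammary epithelium as a gene whose expression is lost in breast cancer lines. Here its relative signals were 13.0% and 13.9% on the Pla2g4c siRNA array, against 4.41% and 4.71% on the control array. The difference of 1.56 ± 0.23, or 2.95-fold, was nearly the same in its first and second spot (1.56 each). Klk11 encodes a trypsin-like protease that is also known as hippostasin. Its relative signals were 60.8% and 66.9% on the Pla2g4c siRNA array, against 27.3% and 27.2% on the control array, so that every Pla2g4c siRNA spot was above the control spots. The difference was 1.23 ± 0.21, or 2.34-fold. Under normexp correction Klk10 and Klk11 were higher by 0.77 and 0.96 and no longer reached 2-fold.

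Klk4 is known for the removal of enamel matrix proteins in maturing teeth and, in human prostate, as an androgen-regulated gene. Its relative signals were 7.22% and 7.88% on the Pla2g4c siRNA array, against 0.713% and 0.722% on the control array, where neither spot was flagged as well above background. The control level therefore is only a limit. Taken against the dimmest detected probe of the control array, the bound of Klk4 was 5.70-fold higher in Pla2g4c siRNA cells. It depends on that choice of floor and on the background correction. Of 231 named genes detected with Pla2g4c siRNA alone, 31.6% had a bound of at least 2-fold. Under normexp correction the bound was 1.63-fold. The processed signals of Klk4 were 79.8 and 87.1 units in Pla2g4c siRNA cells and 6.07 and 6.15 units in control cells.

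Klk7, a chymotrypsin-like protease of the epidermis that cuts corneodesmosome proteins in human and mouse, went the other way. It had the largest absolute difference of the 6 members measured on both arrays with this scaling, though under spike-in scaling it was at -2.23 and Klk8 at 3.16, and Klk4, with a lower bound alone, could not be ranked. Klk7 was represented by 2 probes. The first probe had relative signals of 15.6% and 13.4% on the Pla2g4c siRNA array, against 111.5% and 100.6% on the control array. The second probe had 37.5% and 40.3% on the Pla2g4c siRNA array, against 243.6% and 258.7% on the control array. The probes gave differences of -2.88 ± 0.21 and -2.69 ± 0.20, which lie 0.18 apart, within the error of either. Their mean of -2.78 ± 0.20 corresponds to a 6.89-fold lower signal, and it ranked 4 from the lowest among 9026 named genes.

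Klk6 encodes neurosin, a trypsin-like protease known from brain and spinal cord. Its single probe was printed 10 times on each array. The relative signal ran from 5.96% through a median of 7.34% to 8.92% on the Pla2g4c siRNA array, against a range from 10.5% through 11.8% to 12.7% on the control array. In this relative signal, all Pla2g4c siRNA spots lay below all control spots. The difference of -0.68 ± 0.21, a 1.60-fold lower signal, did not reach 2-fold and ranked 689 from the lowest. When both arrays were scaled to spike-in RNAs instead, it was -0.13, within its technical error of zero.

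In the order of their differences, from Klk7 through Klk6, Klk11, Klk10 and Klk9 to Klk8, most neighbours were further apart than their combined error. Klk9 and Klk10 were not, at 0.11 apart with a combined error of 0.31. Klk10 and Klk11 were 0.33 apart, barely above the same error. The span between Klk8 and Klk7 was 5.39 on the log2 scale. The central 90% of all named genes lay between -0.82 and 0.78, so that Klk6 fell inside it and the other 5 measured members outside.

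**Figure D2:**
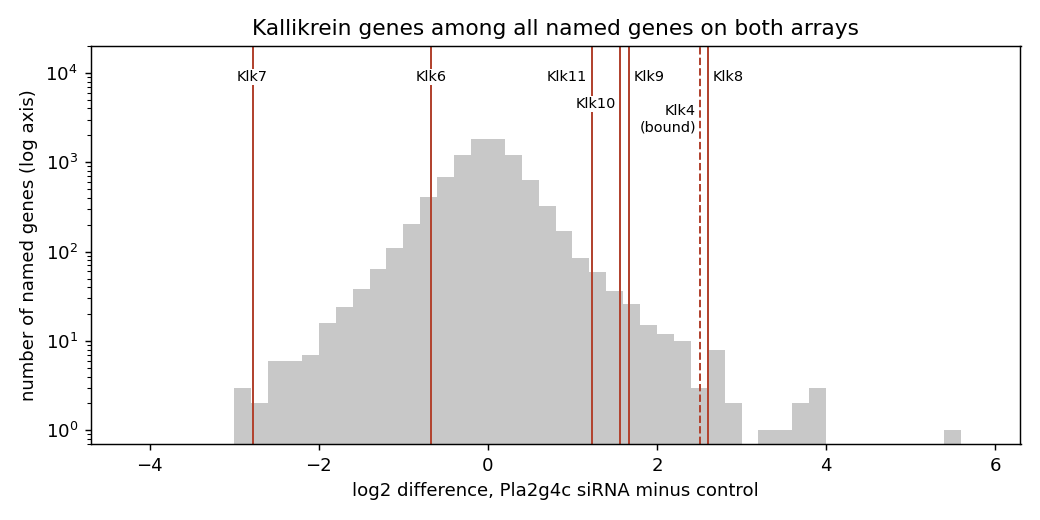
Histogram of the log2 difference, Pla2g4c siRNA minus control, of all 9026 named genes measured on both arrays, with the number of genes on a log axis. Vertical lines mark the kallikrein genes, from Klk7 at -2.78 to Klk8 at 2.61, and the dashed line is the lower bound of Klk4 at 2.51.

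The scaling of the arrays sets the zero of these differences. In the authors' deposited normalized values the median of all named genes was 0.12, with 369 genes at least 2-fold higher and 191 lower, where the values above gave 263 and 275. Scaling to spike-in RNAs gave 1186 higher and 68 lower and moved the median of all named genes by 0.55. Relative to zero, each of the 6 measured members kept the sign of its difference under median, quantile, cyclic loess and spike-in scaling and in the deposited values. Klk6 under spike-in scaling, at -0.13, lay within its technical error of 0.21. In the authors' deposited values Klk8 was higher by 2.74, Klk9 by 1.81, Klk10 by 1.69 and Klk11 by 1.36, while Klk7 and Klk6 were at -2.65 and -0.54.

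The members lie in the gene cluster of their family, and their differences are set out here in gene order as a description, since the same differences chose them. In RefSeq's annotation of rat assembly GRCr8, the cluster on chromosome 1 holds 31 genes and pseudogenes named Klk, of which 24 are protein-coding and 16 had a probe. Klk11, Klk10, Klk9 and Klk8 follow each other with 0 annotated genes between them, and these are the 4 measured genes that were at least 2-fold higher in Pla2g4c siRNA cells. Klk7 and then Klk6 come directly after Klk8 and were lower. Klk4 is next after Klk5, for which no probe was matched, and 1 long non-coding RNA gene. The difference therefore changed sign between the directly adjacent genes Klk8 and Klk7.

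The other kallikrein genes gave no measured level. Of 17 further kallikrein genes considered, which include Klkb1 outside the cluster, 10 had a probe and 0 were measured on both arrays. Of these, 9 had no spot well above background on either array, among them Klk13 and the tissue kallikreins Klk1, Klk1b3, Klk1c2, Klk1c8, Klk1c9, Klk1c10 and Klk1c12, which are near-identical copies that a probe may not tell apart. Klk12, the neighbour of Klk11, had only some spots well above background, with relative signals of 0.964% with Pla2g4c siRNA and 1.42% with control siRNA. Klk5, Klk14 and Klk15 had no matched probe and were not analysed here. Among the 15 annotated genes on either side of the cluster, 4 were measured, Etfb, Ctu1, Fv1 and Shank1, and their differences lay between -0.53 and -0.05. Zfp819 was detected with Pla2g4c siRNA alone, with a bound under 2-fold.

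**Figure D3:**
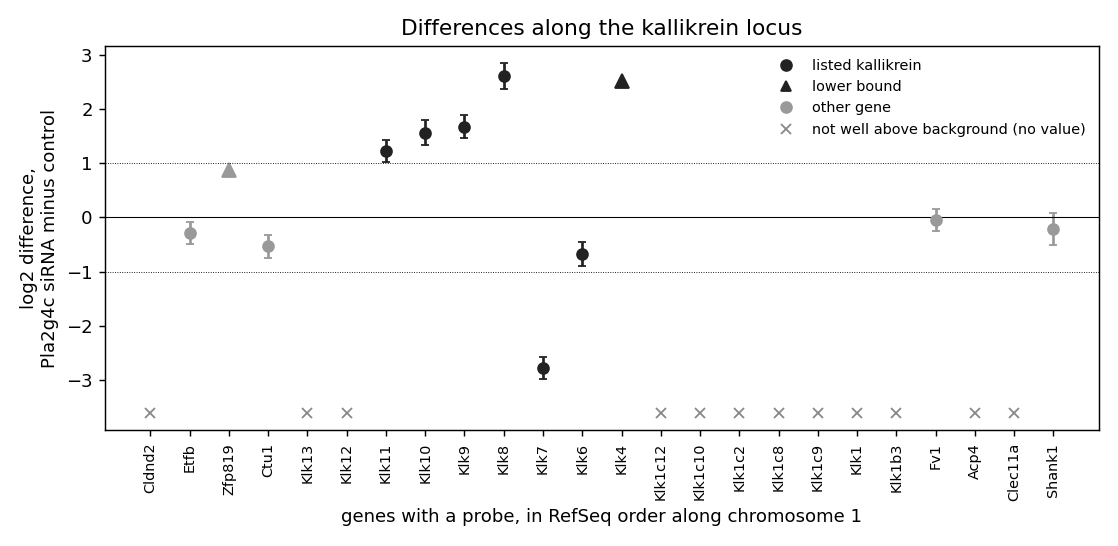
Log2 difference, Pla2g4c siRNA minus control, of the genes with a probe in and around the kallikrein cluster, in RefSeq order along chromosome 1. Black circles are the listed kallikreins and grey circles other genes with the software's error, triangles are lower bounds, crosses at the bottom mark genes without a value, and dotted lines mark 2-fold. Klk11 to Klk8 lie between 1.23 and 2.61, directly followed by Klk7 at -2.78.

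The annotated promoter windows of neighbours on either side of that change of sign are shown, from RefSeq on GRCr8. Each runs from 250 bases before to 50 bases after the annotated start, 5′ to 3′ on the plus strand, and capitals mark a match to a searched motif on either strand. Klk9 is chr1:103382638-103382937, Klk10 chr1:103371388-103371687, Klk11 chr1:103365040-103365339 and Klk7 chr1:103403466-103403765.
Klk9: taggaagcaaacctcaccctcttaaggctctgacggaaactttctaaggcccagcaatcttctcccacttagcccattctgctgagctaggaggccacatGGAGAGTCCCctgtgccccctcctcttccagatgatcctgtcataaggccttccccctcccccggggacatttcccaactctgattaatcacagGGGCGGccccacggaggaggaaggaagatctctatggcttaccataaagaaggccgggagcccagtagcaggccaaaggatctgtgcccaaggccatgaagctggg
Klk10: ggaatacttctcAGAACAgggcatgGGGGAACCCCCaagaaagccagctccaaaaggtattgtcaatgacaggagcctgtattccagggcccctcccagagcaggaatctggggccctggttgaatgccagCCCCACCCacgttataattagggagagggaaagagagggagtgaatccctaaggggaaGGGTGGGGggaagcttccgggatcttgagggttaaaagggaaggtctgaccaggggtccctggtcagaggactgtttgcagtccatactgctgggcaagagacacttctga
Klk11: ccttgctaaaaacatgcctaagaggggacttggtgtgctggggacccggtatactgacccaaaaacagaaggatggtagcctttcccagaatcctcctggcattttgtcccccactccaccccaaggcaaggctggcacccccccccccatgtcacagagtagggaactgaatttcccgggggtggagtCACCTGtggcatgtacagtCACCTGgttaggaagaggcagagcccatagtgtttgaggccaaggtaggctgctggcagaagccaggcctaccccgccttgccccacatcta
Klk7: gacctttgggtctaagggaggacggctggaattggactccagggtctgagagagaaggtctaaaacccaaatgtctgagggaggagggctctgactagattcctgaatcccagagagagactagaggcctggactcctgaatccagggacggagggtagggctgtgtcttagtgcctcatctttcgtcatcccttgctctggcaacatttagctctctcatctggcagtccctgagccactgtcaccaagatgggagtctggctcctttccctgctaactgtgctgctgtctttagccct

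The 7 searched motifs were the TATA box (TATAAA), the AP-1 site (TGANTCA), the NF-kB site, the GC box (GGGCGG), the CACCC box (CCCCACCC), the half-site of the glucocorticoid response element (TGTTCT) and the E-box of Snail and Zeb factors (CAGGTG). Promoters of 5 members were in the table used, and Klk4 and Klk8 were not. Klk9 matched the NF-kB site and the GC box. Klk10 matched the NF-kB site at 2 overlapping positions, the CACCC box at 2 places and the glucocorticoid half-site. Klk11 matched the E-box at 2 places. Klk6 matched the AP-1 site, the GC box and the CACCC box, and no motif was found in the Klk7 window. From the annotated start on, the Klk7 window opens with ATG, so this start may be a start codon and not a transcription start. The Klk7 window may then not hold the promoter, and its lack of matches is not compared with the other genes. No match of a motif overlapped that of another motif. Among all 33469 promoters of this length, 14.2% held the TATA box, which the Klk6, Klk9, Klk10 and Klk11 windows lacked. The AP-1 site was in 7.33% of them, the NF-kB site in 7.51%, the GC box in 33.1% and the CACCC box in 9.46%. The glucocorticoid half-site was in 20.7% and the E-box in 18.8%. All of these are matches of letters, and no binding was measured.

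Of 22 listed inhibitors of kallikreins and related serine proteases 11 were measured, and their differences ran both ways around a median of 0.22, against -0.01 over all named genes. Of these, 1 reached 2-fold upwards and 1 downwards, beside 2.91% and 3.05% of all named genes. Spink5, whose product restrains kallikreins in human epidermis, had the lowest difference (-1.01 ± 0.20), with relative signals of 86.1% in Pla2g4c siRNA cells and 173.1% in control cells. Next lowest was the antitrypsin gene Serpina1 (-0.90 ± 0.20). At the other end was Slpi, an inhibitor of leukocyte elastase (1.18 ± 0.20). Slpi had relative signals of 76.3% in Pla2g4c siRNA cells and 33.6% in control cells.

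Proteases that cut kallikreins or act beside them had a median difference of -0.21 over 14 measured of 22 listed genes, with 1 gene 2-fold higher or more and 0 lower, where 2.91% and 3.05% of all named genes were. The higher gene was Prss22, a trypsin-like epithelial protease, at 1.95 ± 0.20, with relative signals of 94.2% in Pla2g4c siRNA cells and 24.4% in control cells. The tissue plasminogen activator Plat followed at 0.99 ± 0.20. The membrane-bound Tmprss13 (-0.94 ± 0.25) and Prss27 (-0.78 ± 0.26) were lowest.

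Substrates and receptors had a median difference of 0.16 over 16 measured of 28 listed genes, with 2 genes 2-fold higher or more and 3 genes 2-fold lower or more, beside 2.91% and 3.05% of all named genes. With 1 array per group and few genes per list, nothing particular to these 3 lists is read from the counts. The higher genes were Camp, a cathelicidin precursor that kallikreins process in human skin (1.64 ± 0.30), and fibronectin, Fn1 (1.25 ± 0.22). Camp was dim, with relative signals of 6.60% in Pla2g4c siRNA cells and 2.13% in control cells, so signal near background limits its difference. The lower genes included the desmosomal cadherins Dsg3 (-1.10 ± 0.21) and Dsc3 (-1.06 ± 0.21). The third was the amyloid precursor gene App (-1.01 ± 0.20), named after its value was seen. Dsg3, Dsc3 and App, and Spink5 and Slpi among the inhibitors, lay within their technical error of the 2-fold cut. The authors' deposited values moved the median of all named genes up by 0.13 and spike-in scaling by 0.55. Shifted by either amount, Spink5, Dsg3, Dsc3 and App would no longer be 2-fold lower, so these calls depend on the scaling. The enamel genes Amelx, Ambn and Enam, whose products Klk4 degrades in teeth, were detected on neither array.

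**Figure D4:**
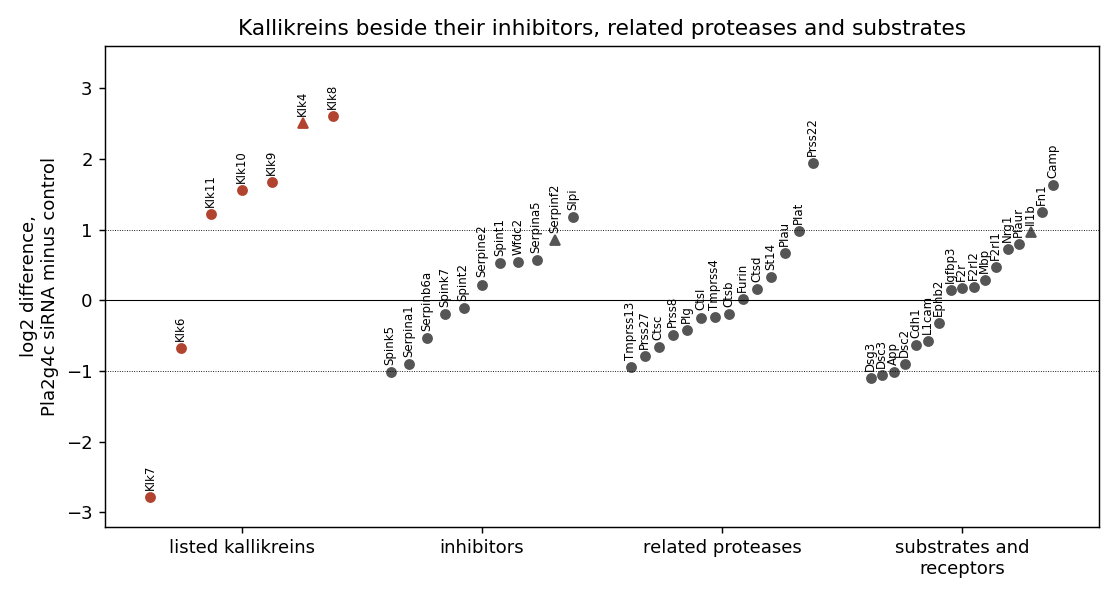
Log2 difference, Pla2g4c siRNA minus control, of the measured genes, in 4 groups sorted by value, with 1 inhibitor gene not shown. Red marks are the listed kallikreins, grey marks the genes of the other lists, triangles lower bounds, and dotted lines 2-fold. The kallikreins span -2.78 to 2.61, the inhibitors -1.01 to 1.18, the related proteases -0.94 to 1.95 and the substrates and receptors -1.10 to 1.64.

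Genes outside these lists were also compared with Klk7, where their brighter array was above the median of measured probes. Of these, the nearest in difference were Lce1f (-2.74 ± 0.20), Krt13 (-2.93 ± 0.20), Stfa3 (-2.60 ± 0.21) and Ly6d (-2.999 ± 0.20). Likeness here is the distance between differences of 2 arrays, and it was at most 0.22 for these 4 genes.

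Epithelial markers were detected on both arrays. Of 11 epithelial marker genes 8 were measured, including the keratins Krt5, Krt14 and Krt17, and Krt18 was detected on neither array. Their differences ran from -1.72 (Krt5) to 1.03 (Epcam). Some mesenchymal markers were also detected, with 4 measured of 9 listed. These were Vim (-0.76), Col1a1 (0.13), Col1a2 (-0.26) and Twist1 (-0.13). Col1a2 was dim, with relative signals of 2.85% in Pla2g4c siRNA cells and 3.41% in control cells. Col3a1, Pdgfrb and Thy1 were detected on neither array, Pdgfra had only some spots well above background, and Zeb1 had no matched probe. Among 4 endothelial markers 1 was measured, Cdh5, at -0.40, and Pecam1, Kdr and Tek were detected on neither array. Of 7 leukocyte markers 3 were measured, Cd68, Csf1r and Aif1, with differences of -0.39, 0.09 and 1.37, and the defining genes Ptprc, Cd3e and Itgam were detected on neither array. The part of epithelial cell state in the kallikrein differences was not tested. On a culture's total RNA, fewer cells that express a gene and less RNA of it per cell cannot be told apart.

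**Figure D5:**
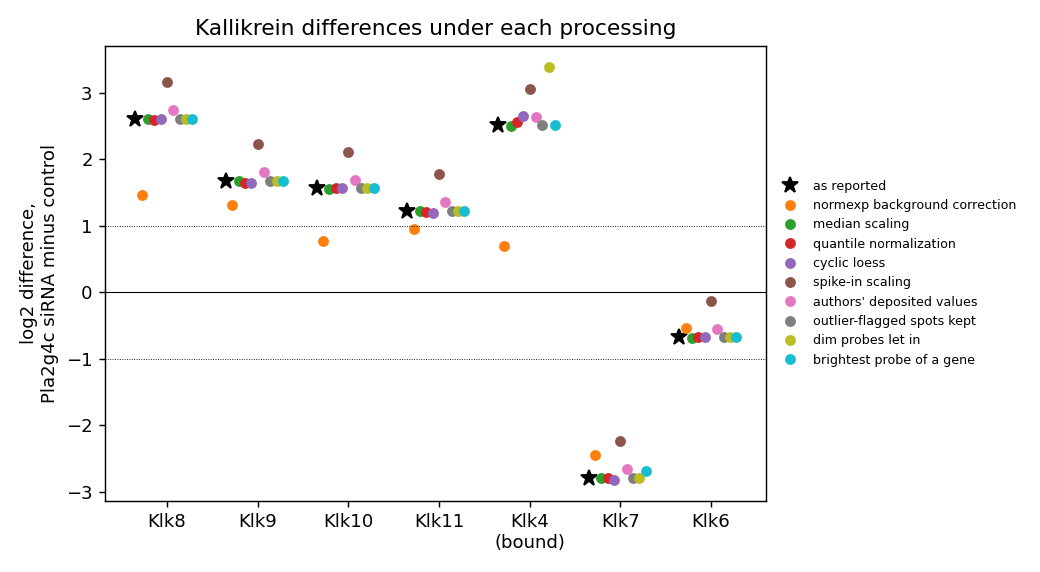
Log2 difference, Pla2g4c siRNA minus control, of each kallikrein gene as reported (stars) and under 9 other ways of processing (circles), with dotted lines at 2-fold. For Klk4 the marks are lower bounds, except the value of 3.39 with dim probes let in. The marks of a gene stay on 1 side of zero, the normexp marks of Klk10, Klk11 and Klk4 lie below 2-fold at 0.77, 0.96 and 0.70, and the spike-in mark of Klk6 lies at -0.13.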

How the data were processed

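Expression was measured on 2 one-colour Agilent arrays, 1 per group by the knockdown label. The authors obtained the intensity values of the scanner files from Agilent Feature Extraction, whose version is 10.10.1.1 in the file headers and 10.10 in the notes of the submitters. Its processed signal has local background and spatial trend removed per array, per the file headers. The outlier and background flags are other columns used as the authors deposited them. A deposited table of normalized intensities equals the processed signal times 1.50 (Pla2g4c siRNA) and 1.77 (control), and the origin of these constants is not stated in the sources used here.

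From these files, each gene spot's processed signal was divided by the 75th percentile of its array and put on the log2 scale. Outlier-flagged spots were removed from both arrays (0 among the members), and replicate spots were averaged. A probe was measured where all spots had the background flag on both arrays, as 16840 of 30367 did, and measured probes of a gene were averaged. The error combines the software's errors of both signals (median 0.20). A gene with no flagged spot on 1 array has a bound, the brighter value against the dim probe's own value or that array's dimmest detected probe, whichever is higher. The number of arrays limits the precision, and 63.1% (Pla2g4c siRNA) and 61.9% (control) of gene spots carried the flag.

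RefSeq accessions gave 1 symbol to 18006 probes (59.3%). The array design was annotated on rn4 and RefSeq is on GRCr8, so only gene order and promoters are taken from RefSeq. Members and gene lists were chosen with earlier results of these data known. Named genes were all members, the 2 highest and 2 lowest measured genes of each further list, list genes with a bound of at least 2-fold and the 4 genes nearest in difference to the measured member with the largest one. Those 4 were sought among genes whose brighter array was above the median of measured probes. Of the genes so chosen, 1 is not reported here. Alternatives were normexp correction of the median spot signal (offset 50), since the files hold no mean signal, median, quantile, cyclic loess and spike-in scaling (7 probes), the deposited values, flagged spots kept, dim probes let in, the brightest probe of a gene, and thresholds of 1.5-fold and 3-fold. Steps were tested on simulated data. The software was limma 3.58.1 in R 4.3.3, and numpy 2.4.6, pandas 2.3.3 and matplotlib 3.10.9 in Python 3.11.15.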

Additional observations from a re-analysis of the deposited data

How the results depend on the processing

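Across the alternatives each kallikrein gene kept the sign of its difference, though Klk6 under spike-in scaling lay within its technical error of zero. Median, quantile and cyclic loess scaling, the authors' deposited values, flagged spots kept and the brightest probe of a gene moved no kallikrein value by more than its technical error. Normexp correction, which adds an offset of 50 units and so compresses dim signals by construction, gave 1.46 for Klk8, 1.32 for Klk9, 0.77 for Klk10, 0.96 for Klk11, -2.45 for Klk7 and a bound of 0.70 for Klk4. The median of the measured members, without Klk4, was then 0.87, 2 kallikrein genes were at least 2-fold higher, and over all named genes 116 were higher and 154 lower. Scaling to spike-in RNAs, which shifts every gene by the same amount, gave 3.16 for Klk8, 2.22 for Klk9, 2.11 for Klk10, 1.78 for Klk11, -2.23 for Klk7, -0.13 for Klk6 and a bound of 3.06 for Klk4. The median of the measured members, again without Klk4, was 1.94 with that scaling, and 1186 named genes were higher and 68 lower in all. With dim probes let in, Klk4 had a difference of 3.39, and 539 and 765 of the then larger set of genes were higher and lower. At 1.5-fold 2 kallikrein genes were lower, and 784 named genes were higher and 929 lower in all. At 3-fold 2 kallikrein genes were higher, and 85 and 65 named genes in all. No paired analysis was possible because each group has 1 array and the results come from no test. The background flag limits Klk4, and signal near background limits Klk8 and Klk10 in control cells.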

Other observations

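The brightness of the dim kallikrein spots before background subtraction is the input of the normexp values and comes from the same spots as the processed signal, so it is given as a description and not as separate support. The median pixel of the Klk8 spots was 307 and 321 units on the Pla2g4c siRNA array over local backgrounds of 30 each, against 70 and 71 units on the control array over 31 each. For Klk4 it was 101 and 129 units on the Pla2g4c siRNA array over local backgrounds of 25 and 28, against 40 and 41 units on the control array over 26 and 29. For Klk10 it was 180 and 214 units on the Pla2g4c siRNA array, against 69 and 83 units on the control array. For Klk6 the ranges of this unsubtracted brightness overlapped. They were 90 to 143.5 units on the Pla2g4c siRNA array and 117 to 162.5 units on the control array. These units are not scaled between the arrays. The unscaled processed signals of Klk6 also overlapped, at 65.9 to 98.6 units with Pla2g4c siRNA and 89.5 to 107.9 units with control siRNA.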
